A study of Mus musculus with 14 samples.

Results

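The genes of the cytosolic ribosomal proteins were examined in 10 lists of chromatin immunoprecipitation (ChIP-seq) peaks from differentiating mouse C2C12 cells. A gene was counted when its symbol had the form of a large-subunit (Rpl) or small-subunit (Rps) protein name, of the stalk proteins Rplp0 to Rplp2, or of Rpsa, and symbols of numbered pseudogenes were left out. The reference annotation holds 87 such symbols, of which 83 are protein-coding there and 4 are not (Rps4l, Rpl6l, Rps3a2 and Rps3a3). At least 1 peak was named for 75 of the 87, which were 45 large-subunit and 30 small-subunit genes, among 22838 genes named anywhere in the lists. These 75 genes had 1024 of the 517058 peaks. The other 12, among them Rpl4, Rpl7a, Rps2 and Rps7, were named for no peak in any list.

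Of the 14 samples, 4 were immunoprecipitated after transfection with a small interfering RNA against the long non-coding RNA Myolinc (siMyolinc) with antibodies to TDP-43, MyoD, Myogenin and RNA polymerase II phosphorylated on serine 2 of its tail repeat (Pol II S2P). The control samples were 3 TDP-43 immunoprecipitations and 1 each for MyoD, Myogenin and Pol II S2P, and the remaining 4 samples were the input DNA and IgG libraries of both conditions. All cells were C2C12, a mouse myoblast line that fuses into myotubes when serum is withdrawn, and all were taken at day 2 of differentiation. The siRNA was used at 10 nM, each immunoprecipitation used 10 µg of antibody, and each library began with 100 ng of DNA and had 18 cycles of PCR. The labels do not say whether the controls received a control siRNA, and they do not say whether the 3 TDP-43 control libraries came from separate cultures, so their spread may be technical. TDP-43 is a DNA- and RNA-binding protein that prefers UG-rich RNA, MyoD and Myogenin are muscle-specific transcription factors that bind E-boxes (CANNTG), and serine-2-phosphorylated Pol II marks transcript elongation. The question of the series is how loss of Myolinc bears on TDP-43 binding at promoters of muscle genes.

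Ribosomal proteins assemble with ribosomal RNA into the small subunit, which decodes mRNA, and the large subunit, which joins amino acids. Their genes are short, are transcribed at high rates in nearly every cell, begin at a cytosine followed by a run of pyrimidines (the 5′ terminal oligopyrimidine, or TOP, motif that ties their translation to growth signals), and often carry snoRNAs in their introns. They have also left many processed pseudogenes and a few intronless or tissue-restricted copies, so short reads from one copy may map to another. Growth and ribosome production in muscle rise and fall with protein synthesis demand, and myoblasts leave the cell cycle as they differentiate.

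Promoter sequences of 6 genes are shown because the peaks at their starts carry the promoter results: Rpl39l has a start site with peaks in the most libraries, Rps4x and Rps19 each have a promoter site shared by 3 libraries, Rpl12 and Rpl35 have TDP-43 promoter peaks in siMyolinc cells and in no TDP-43 control, and Rpl34 has overlapping MyoD and Myogenin peaks. Each window runs from 250 bases before the RefSeq start to 50 bases from it (GRCm38.p6, the assembly that mm10 coordinates follow), 5′ to 3′ on the gene's strand. The windows are chr16:10169978-10170277, plus strand, for Rpl39l; chrX:102189342-102189641, minus strand, for Rps4x; chr2:32961462-32961761, plus strand, for Rpl12; chr2:39005082-39005381, minus strand, for Rpl35; chr7:24884342-24884641, plus strand, for Rps19; and chr3:130730288-130730587, minus strand, for Rpl34. Capitals mark matches, on either strand, to the E-box CANNTG (which includes CAGCTG), the ETS-type core TTCCGG, the TG repeat TGTGTG and the YY1-type core AAGATGGC.
Rpl39l: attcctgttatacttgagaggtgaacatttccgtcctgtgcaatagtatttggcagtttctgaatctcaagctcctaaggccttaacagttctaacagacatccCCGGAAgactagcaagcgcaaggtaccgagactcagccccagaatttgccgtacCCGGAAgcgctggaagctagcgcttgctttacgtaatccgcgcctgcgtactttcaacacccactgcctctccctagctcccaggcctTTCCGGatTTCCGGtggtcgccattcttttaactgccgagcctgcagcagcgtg
Rps4x: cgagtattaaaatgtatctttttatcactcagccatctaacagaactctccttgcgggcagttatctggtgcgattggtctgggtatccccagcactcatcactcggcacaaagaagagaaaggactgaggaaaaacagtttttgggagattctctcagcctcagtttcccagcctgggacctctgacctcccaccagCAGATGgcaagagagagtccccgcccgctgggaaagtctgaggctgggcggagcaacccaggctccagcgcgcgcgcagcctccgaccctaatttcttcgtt
Rpl12: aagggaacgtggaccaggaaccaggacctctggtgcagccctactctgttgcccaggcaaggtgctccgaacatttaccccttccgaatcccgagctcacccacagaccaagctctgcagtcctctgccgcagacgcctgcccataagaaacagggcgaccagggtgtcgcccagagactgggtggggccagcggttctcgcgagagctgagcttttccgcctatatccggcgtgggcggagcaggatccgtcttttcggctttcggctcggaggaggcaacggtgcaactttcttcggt
Rpl35: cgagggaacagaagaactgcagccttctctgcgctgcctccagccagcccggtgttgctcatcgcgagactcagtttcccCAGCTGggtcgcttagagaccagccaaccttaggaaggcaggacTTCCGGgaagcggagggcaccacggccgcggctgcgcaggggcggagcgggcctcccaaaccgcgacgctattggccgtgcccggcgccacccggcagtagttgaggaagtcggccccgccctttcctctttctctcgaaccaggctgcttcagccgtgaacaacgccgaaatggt
Rps19: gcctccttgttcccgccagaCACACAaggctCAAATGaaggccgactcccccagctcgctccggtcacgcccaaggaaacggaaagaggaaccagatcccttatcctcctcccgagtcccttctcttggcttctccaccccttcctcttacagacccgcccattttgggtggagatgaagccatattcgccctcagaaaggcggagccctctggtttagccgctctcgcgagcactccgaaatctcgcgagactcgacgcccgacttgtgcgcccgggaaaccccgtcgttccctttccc
Rpl34: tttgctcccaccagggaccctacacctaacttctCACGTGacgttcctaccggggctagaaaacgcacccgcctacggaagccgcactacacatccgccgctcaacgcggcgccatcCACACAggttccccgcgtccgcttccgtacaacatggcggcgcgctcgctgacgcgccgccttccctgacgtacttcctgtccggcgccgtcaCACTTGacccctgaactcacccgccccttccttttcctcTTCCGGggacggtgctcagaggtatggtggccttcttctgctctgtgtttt
Rpl39l holds 4 TTCCGG matches, 2 of them within 4 bases of the start. Rps4x has a single E-box, CAGATG, 52 bases before the start. Rpl12 has no match in its window, and Rpl35 has CAGCTG 170 bases and TTCCGG 126 bases before its start. Rps19 carries an E-box (CAAATG) 219 bases before its start and the reverse strand of the TG repeat 230 bases before it. Rpl34 has E-boxes 216 and 40 bases before its start, the reverse TG repeat 133 bases before it and a TTCCGG that overlaps it. Matches are letters in the window and were not tested as binding sites.

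The lists differ in length, and most counts of genes move with that. The numbers of peaks were 24964 for TDP-43 in siMyolinc cells against 29703, 10571 and 8162 in control replicates 1, 2 and 3; 109541 against 71884 for MyoD; 20453 against 115000 for Myogenin; and 116064 against 10716 for Pol II S2P. Outside the top 1%, every score was a whole multiple of a step particular to its list, within 0.05 of a score unit. The top 1% were not checked, and all scores were read as numbers of sequence tags. If scores were scaled to 10000000 tags, the steps imply 3040130 to 3775520 tags in the siMyolinc libraries, 3378210 and 3400140 in the MyoD and Myogenin controls, and 962363 to 1455040 in the TDP-43 and Pol II S2P controls. Peaks had a median of 6 to 24 tags, except in the Myogenin siMyolinc list, where it was 137, and they were 75 bp wide in the MyoD and Myogenin siMyolinc lists and 217 to 249 bp elsewhere. The part that depth, list length and peak width have in the differences below was not tested beyond the alternatives given, and with 1 library in most groups condition and library cannot be told apart. Peak lists carry no RNA level, so the cell type could not be checked by expression. As a guide, promoters of 14 muscle identity genes had peaks in 0 to 3 genes per list (Myod1 and Ckm in 4 lists each), and promoters of 15 fibroblast, bone and fat genes likewise had peaks in 0 to 3.

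Ribosomal protein genes took a small share of every list. They made up 0.224% of TDP-43 siMyolinc peaks (95% Wilson interval 0.173 to 0.291), against 0.152%, 0.114% and 0.147% in the 3 control replicates. For the other antibodies the siMyolinc and control shares were 0.198% and 0.216% for MyoD, 0.249% and 0.194% for Myogenin, and 0.205% and 0.140% for Pol II S2P. The TDP-43 share was 0.0870 percentage points above the control mean of 0.137% ± 0.0208 (SD, n = 3), with an exact permutation p = 0.25 (two-sided), the smallest that 1 library against 3 can give. Genes named for a peak of any kind numbered 36 against 22, 8 and 11 for TDP-43, 52 against 43 for MyoD, 25 against 48 for Myogenin and 51 against 11 for Pol II S2P. Among the 83 protein-coding members, 42.2% were named in the TDP-43 siMyolinc list, where 45.1% of all 21900 protein-coding genes were named. In the 3 TDP-43 control lists 26.5%, 8.43% and 12% of members were named, where 49.3%, 26.8% and 22.3% of all genes were. In siMyolinc and control cells the member shares were 61.4% and 50.6% for MyoD, 28.9% and 57.8% for Myogenin and 60.2% and 12% for Pol II S2P, beside 75.6% and 64.9%, 39.7% and 73.2%, and 77% and 26.8% of all genes. The member share was below that of all genes in each of the 10 lists, and the differences were not tested.

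Promoter peaks named for ribosomal protein genes were few, and the longest TDP-43 list had none. In TDP-43 lists 7 genes had a promoter peak in siMyolinc cells, where 2.49% of all protein-coding genes did, and 0, 1 and 2 genes had one in control replicates 1, 2 and 3, where 5.09%, 2.12% and 1.65% of all genes did. As shares of the 83 protein-coding members these were 8.43% in siMyolinc cells and 0%, 1.20% and 2.41% in the controls. The count was 6 above the control mean of 1 ± 1 (SD, n = 3), at the smallest p the design allows (exact permutation p = 0.25, two-sided). MyoD lists had 12 genes in siMyolinc cells and 8 in control cells, or 14.5% and 9.64% of members, beside 11.2% and 4.01% of all genes. For Myogenin the counts were 3 in siMyolinc cells and 10 in control cells, or 3.61% and 12% of members, beside 2.46% and 6.46% of all genes. Pol II S2P lists had 9 genes in siMyolinc cells and 1 in control cells, or 10.8% and 1.20% of members, beside 8.89% and 1.55% of all genes. With the lists cut to their 8162 highest peaks, TDP-43 had 2 more genes in siMyolinc than on average in control cells, MyoD and Pol II S2P each had 1 more, and the Myogenin difference was -1. Equal scores at the cut were split by order in the list. In MyoD siMyolinc the cut fell among the 42-tag peaks, which include Rpl36a and Rplp2, so the MyoD difference depends on that order. When promoter peaks were assigned by position instead of by name, TDP-43 had 9 genes in siMyolinc cells, against 1, 1 and 2 in the controls. The 1 in replicate 1 was Rpl18, with an 8-tag peak named for Sphk2. The siMyolinc and control counts by position were 18 and 12 for MyoD, 4 and 14 for Myogenin, and 12 and 1 for Pol II S2P. Shares of all genes were not counted for promoter peaks by position or for the cut lists. Whether these counts differ from those of all genes is therefore not known.

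**Figure D1:**
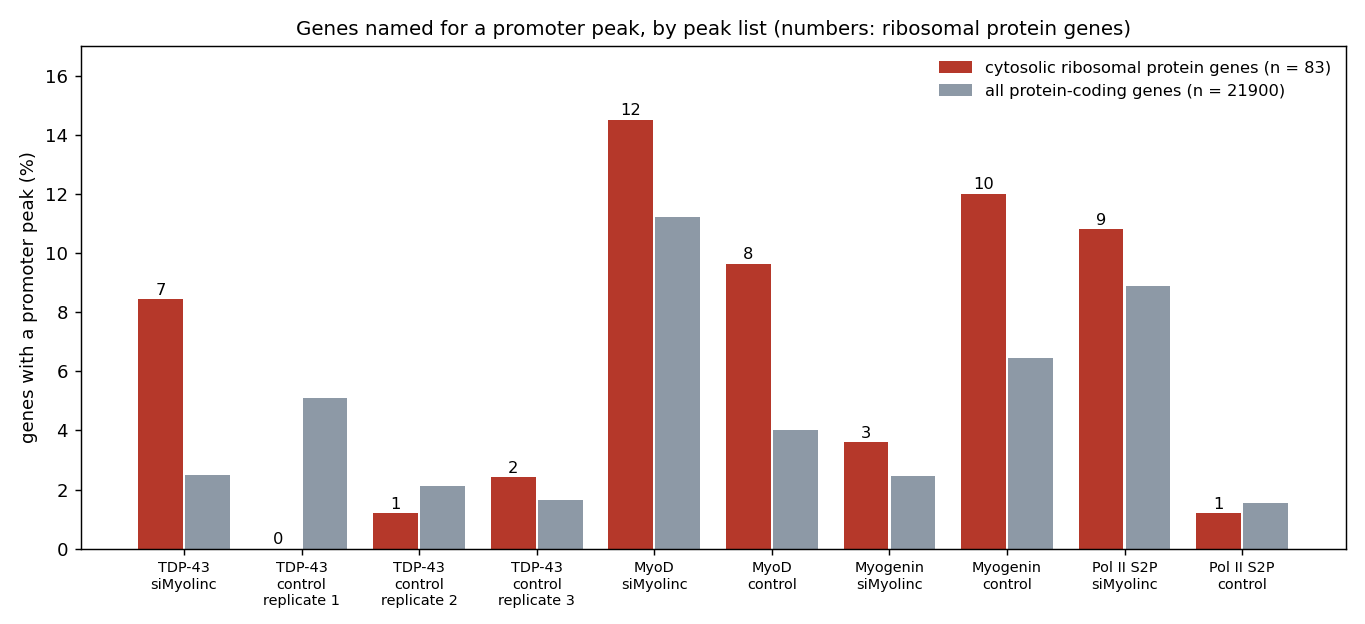
Percent of the 83 protein-coding cytosolic ribosomal protein genes (red) and of all 21900 protein-coding genes (grey) named for a promoter peak in each of the 10 peak lists, with siMyolinc left of control for each antibody. Numbers above the red bars count the genes; each bar is 1 library, and the red bar stands furthest above its grey neighbour, in percentage points, in TDP-43 siMyolinc (8.43% against 2.49%).

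The TDP-43 promoter peaks of siMyolinc cells were named for 5 large-subunit genes, of which Rpl39l is a tissue-restricted paralog, and for 2 small-subunit genes. Rpl12, a protein of the stalk base that contacts translation factors, had a 9-tag peak centred 61 bp upstream of its start (chr2:32961543-32961759), and it covered positions -169 to 47 of the window printed above. Rps19, a small-subunit protein whose human gene is mutated in Diamond-Blackfan anaemia, had a 9-tag peak 297 bp upstream. A count of 9 tags has an exact Poisson interval of 4.12 to 17.1 and stood at the 78.9th percentile of the list, so both peaks were in its upper part but were low in tags. Rpl35 (7 tags, 114 bp upstream), Rpl37 (7 tags, 482 bp upstream) and Rpl38 (7 tags, 417 bp upstream) stood at the 41.7th percentile. Rpl38 is known in mice for its part in translating Hox mRNAs. No TDP-43 control list had a promoter peak at any of these 5 genes. Rpl39l had a promoter peak of 5 tags in siMyolinc cells and of 5 and 6 tags in control replicates 2 and 3. The only other control promoter peak named for a member was at Rps4x, the X-linked small-subunit gene, with 4 tags in replicate 3.

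Pol II S2P promoter peaks were named for 9 genes in the long siMyolinc list and for 1 in the short control list. Rpl23, a large-subunit protein that in human cells can bind the p53 regulator MDM2, had 24 tags in siMyolinc cells at a peak 127 bp upstream of its start, at the 97.6th percentile of that list. Rpl27a also had 24 tags, 441 bp inside the gene, where the promoter class belonged to the intronic snoRNA Snora3. Lower peaks lay at Rpl30 (15 tags), Rps12 (11), Rps4x (11), the stalk protein gene Rplp0 (10), Rps24 (10), Rpl37a (8) and Rps13 (8), at distances from -775 to -47 bp for all but Rpl27a. In control cells the sole promoter peak was at Rpl39l, with 6 tags 23 bp upstream of the start. None of the 9 siMyolinc genes had a Pol II S2P promoter peak in the control list, which held 10716 peaks, against 116064 in the siMyolinc list.

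MyoD promoter peaks named for members were highest, in siMyolinc cells, at Rps19 (49 tags, 349 bp upstream), Rpl36a (42 tags, 208 bp upstream), the stalk gene Rplp2 (42 tags, 784 bp upstream), Rps6, the small-subunit target of S6 kinase (36 tags, 479 bp upstream), and Rpl39l (34 tags, 904 bp upstream). Lower peaks lay at Rps18 (30 tags), Rps23 (29), Rpl37a (22), Rpl32 (18), Rps3a1 (14) and Rpl15 (9). In control cells the highest were Rpl41, whose protein is among the shortest known (17 tags, 273 bp upstream), Rpl23a (12 tags), Rpl34 (11), Rps23 (9) and, with 8 tags each, Rps16 and Rps4x, followed by Rpl15 (7) and Rpl8 (6). Rps23 and Rpl15 were named in both MyoD lists, and only at Rpl15 did the peaks overlap, with 9 tags in siMyolinc cells and 7 in control cells, in a promoter shared with Nkiras1. Tags are not comparable between these lists, since the median peak had 24 tags in siMyolinc cells and 8 in control cells.

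Myogenin was the antibody with fewer promoter genes after knockdown, in a list also shorter. Its promoter peaks in siMyolinc cells included those of Rpl7 (129 tags, 437 bp upstream) and Rpl34 (125 tags, 69 bp upstream, exact Poisson interval 104 to 149). In a list with a median of 137 tags these stood only at the 46.2nd and 44.3rd percentiles. In control cells the highest named for members were Rpl36al, a paralog of Rpl36a (26 tags, in a promoter classed to Mgat2), Rpl13a (19), Rpl19 (18), Rps21 (18, classed to Mir3091) and Rpl27 (17), with Rps19 (16), Rpl27a (11), Rps23 (10) and Rps27l, a p53-induced paralog of Rps27 (7), below them. Rpl7 had no Myogenin promoter peak in control cells. At Rpl34 the control list held a 10-tag peak in the promoter class of an Rpl34 transcript (chr3:130730141-130730359), but it was named for Rpl34-ps1 and is not in the counts by name. It did not overlap the siMyolinc peak (chr3:130730430-130730504).

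**Figure D2:**
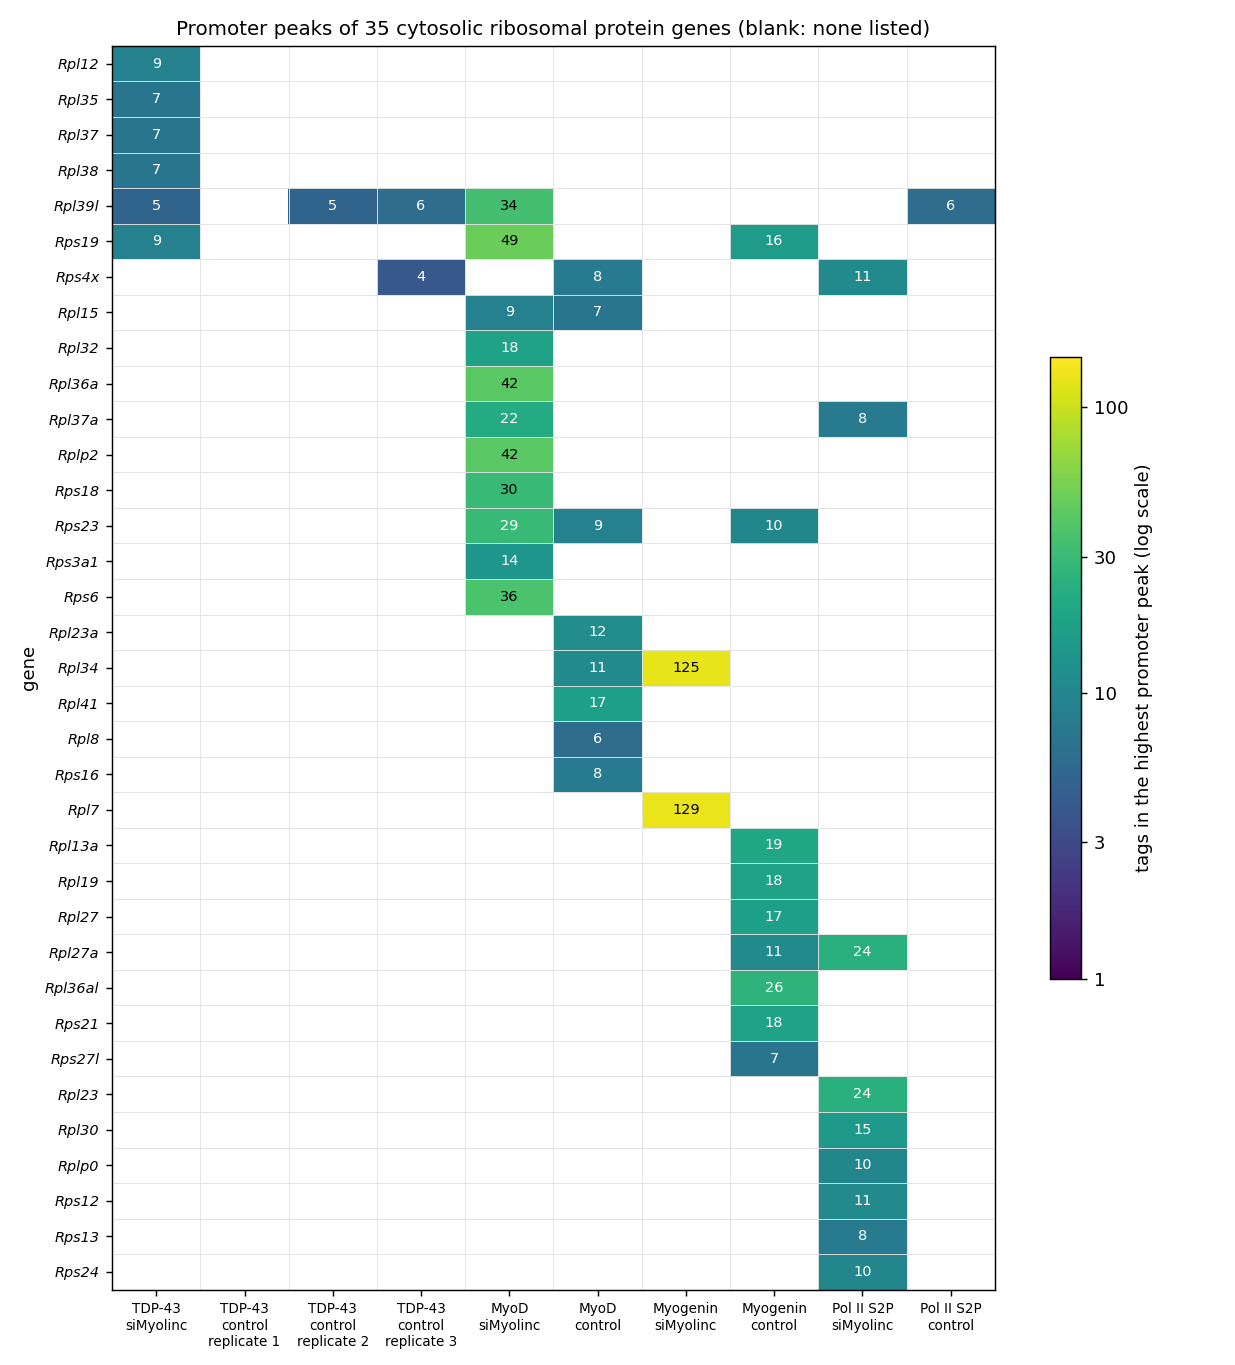
Tags in the highest promoter peak (colour, log scale, with the number of tags printed) of 35 ribosomal protein genes with such a peak, in the 10 peak lists, siMyolinc left of control for each antibody. Most rows have a single filled cell, and Rpl39l is filled in 5 lists.

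Of the 87 genes, 37 were named for a promoter peak somewhere and 10 for one in at least 2 lists. The start of Rpl39l was the site that recurred most. Rpl39l is an autosomal paralog of the X-linked Rpl39 and is known for expression in testis. Overlapping peaks covered chr16:10170093-10170570 in 6 libraries, with 5 tags for TDP-43 and 21 tags for Pol II S2P in siMyolinc cells, against 5 and 6 tags in TDP-43 control replicates 2 and 3, 6 tags in the MyoD control and 6 in the Pol II S2P control. Their centres lay between 23 bp upstream and 227 bp downstream of the start. The TDP-43 siMyolinc and control replicate 2 peaks both covered positions -76 to 49 of the printed window, a stretch with 2 TTCCGG matches. At 5 tags the exact Poisson interval is 1.62 to 11.7 tags. The deposited scores of these TDP-43 peaks, which are scaled within each list, were 15.4 in siMyolinc cells, against 46 and 62.3 in control replicates 2 and 3, so equal tags stood for a lower score after knockdown, and the difference was not tested. Rpl39l shares much of its sequence with Rpl39, and reads could have been split between the copies.

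Rps4x had overlapping peaks in TDP-43 control replicates 1 and 3 (7 and 4 tags) and in the MyoD control (8 tags), at chrX:102189247-102189524. HOMER places them 985 to 1029 bp upstream of the start it uses, and the longer RefSeq transcript starts 1020 bp upstream of that start, inside the peaks, so they fall in the window printed above. The Pol II S2P siMyolinc peak of Rps4x (11 tags) was at the other, downstream start, 47 bp before it. Rps19 peaks overlapped in 3 libraries of 3 antibodies at chr7:24884309-24884568, with 9 tags for TDP-43 and 49 for MyoD in siMyolinc cells and 16 for Myogenin in control cells. The MyoD peak covered positions -250 to -190 of the printed window, the end that holds its E-box and TG repeat, and the Myogenin peak covered -242 to -24. Rpl34 had 11 tags for MyoD in control cells, over positions -248 to -18, and 125 for Myogenin in siMyolinc cells, over -167 to -93. Rpl8, a protein near the peptidyl transferase centre, had peaks 86 to 390 bp inside its start in 4 control libraries, with 15 and 6 tags in TDP-43 control replicates 1 and 3, 6 in the MyoD control and 7 in the Pol II S2P control. No siMyolinc list had a peak at that Rpl8 site.

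Most sites did not recur. Peaks overlapping by at least 1 bp formed 885 sites seen in 1 library, 44 in 2, 11 in 3, 3 in 4 and 1 in 6. The share of ribosomal protein peaks that another library also held was 17.9% in TDP-43 siMyolinc, against 40%, 75% and 58.3% in its controls, beside 21.2%, against 44.2%, 65.4% and 70.1%, for all peaks of those lists. It was 6.45% and 10.3% for MyoD, 21.6% and 8.52% for Myogenin, and 11.3% and 60% for Pol II S2P, in siMyolinc and control cells, beside 9.28% and 9.14%, 13.2% and 7.93%, and 11.1% and 56.1% for all peaks. The recurring sites away from starts lay mostly in neighbouring genes. Those named for Rps28 were in an exon of Kank3 (MyoD, Myogenin and Pol II S2P in siMyolinc cells, with 12, 105 and 11 tags, and Myogenin in control cells, with 11). Others seen in 3 libraries were in Tead3 beside Rpl10a, Tbc1d8 beside Rpl31, an intron upstream of Rpl38, Upf3b beside Rpl39, Pxn beside Rplp0 and Zfp647 beside Rpl8, and in intergenic DNA near Rpl39l and Rps20.

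Most peaks named for ribosomal protein genes were intergenic or intronic, and their distances are given beside those of all peaks. Of the 1024 peaks, 595 were intergenic, 292 intronic, 55 in promoters, 41 in exons and 41 in UTRs, gene ends or non-coding exons. The median distance from the named start was 10030 bp in the TDP-43 siMyolinc list, against 22483, 6425 and 4272 bp in the 3 controls, where all peaks had medians of 32260.5 bp, against 23819, 20384 and 19533 bp. In siMyolinc and control cells it was 38678 and 42123 bp for MyoD (all peaks 37585 and 47652 bp), 35174 and 57911 bp for Myogenin (34392 and 54286.5 bp), and 38169 and 7572 bp for Pol II S2P (35639 and 24616 bp). Peaks within 1000 bp of the start were 17.9% in TDP-43 siMyolinc, against 4.44%, 25% and 41.7% in its controls, where the control lists held only 45, 12 and 12 such named peaks in all. The difference from the control mean of 23.7% ± 18.6 (SD, n = 3) had an exact permutation p = 0.75 (two-sided). Over all genes the shares within 1000 bp were 4.76% against 9.94%, 11.8% and 11.7% for TDP-43. For MyoD the share for ribosomal protein genes was 8.76% in siMyolinc cells and 7.74% in control cells, where all genes had 4.79% and 2.42%. Myogenin had 5.88% and 5.38%, where all genes had 5.90% and 2.47%, and Pol II S2P had 6.72% and 20%, where all genes had 3.68% and 8.82%.

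**Figure D3:**
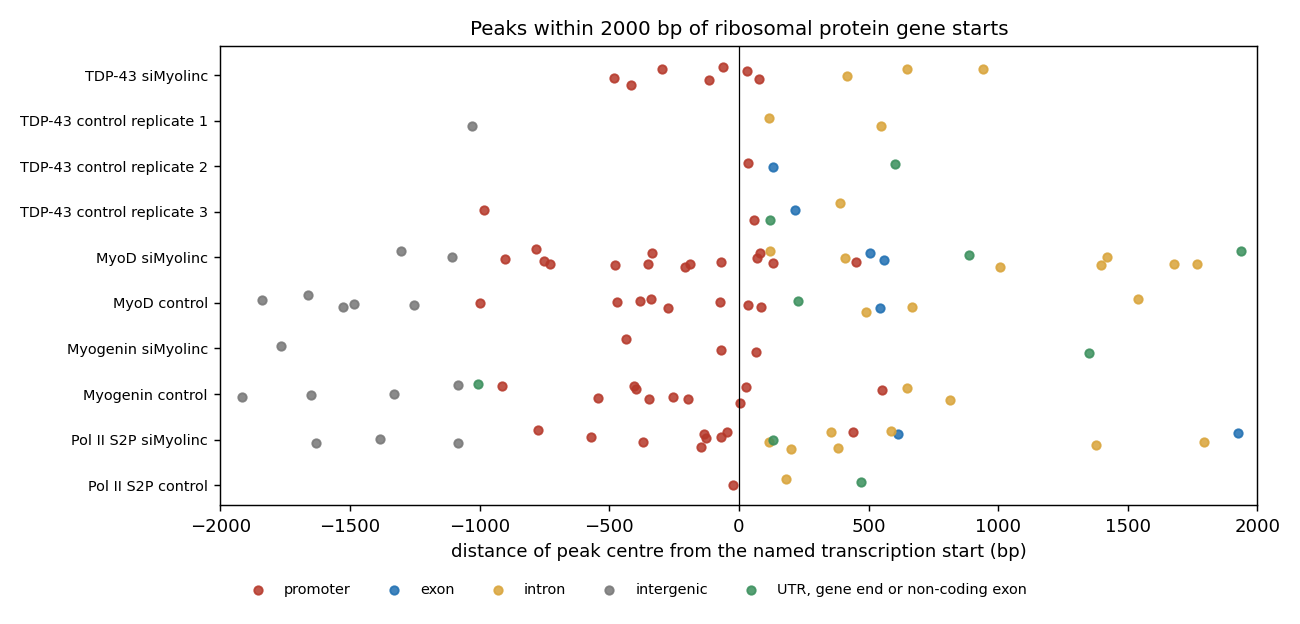
Distance in bp from the named transcription start to the centre of each peak within 2000 bp of a ribosomal protein gene, 1 point per peak, coloured by annotation class, with each library on its own line (vertical scatter within a line is for visibility). Promoter peaks spread on both sides of the start in most lists, and Pol II S2P siMyolinc peaks also lie in introns.

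A small number of members drew many of the distant peaks. Rpl10l was named for 115 peaks over all 10 lists, of which 2 lay in the gene, and Rps29 for 94, Rps24 for 79, Rps15a for 66, Rpl38 for 45, Rpl39l for 35, Rps4l for 27, Rplp0 for 22 and Rps20 for 20. Of these, Rps29, Rps15a, Rpl38, Rps4l and Rps20 were named in 8 lists, Rplp0 in 9 and Rps24 in 7. Others named in 7 lists included Rplp1, with 51 peaks, Rpl34, with 38, Rps23, with 35, and Rpl31, with 33. Peaks named for Rpl10l included sites 422282 bp upstream of it in an intron of Mdga2. No peak centre lay in Rps29 or Rps15a or in the 1000 bp upstream of either.

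Exon peaks named for ribosomal protein genes were mostly exons of other genes. Genes with such a peak numbered 3 in the TDP-43 siMyolinc list, where 6.63% of all protein-coding genes had one, and 5, 3 and 3 in the controls, where 17.1%, 8.87% and 7.49% did. The count was 0.667 below the control mean of 3.67 ± 1.15 (SD, n = 3; difference -0.667, exact permutation p = 1, two-sided). MyoD had 6 in siMyolinc cells and 2 in control cells (background 13.8% and 5.35%), Myogenin 3 and 3 (4.88% and 8.04%), and Pol II S2P 10 and 1 (15.2% and 8.07%). HOMER names a peak for the nearest start but classes it by the gene it lies in. Of 40 exon peaks named for a protein-coding member, 17.5% lay in that member's own exon, against 70.5% of the 25042 exon peaks named for any protein-coding gene. For intron peaks the shares were 14.4% and 76.1%, and for promoter peaks 87.3% and 91.1%. Exon peaks in neighbours included Zfp647, beside Rpl8, in all 3 TDP-43 controls (16, 6 and 6 tags) and the Pol II S2P control (12 tags), and Npas2, beside Rpl31, in TDP-43 siMyolinc (7 tags), TDP-43 control replicate 1 (7 and 8 tags) and Pol II S2P siMyolinc (11 tags).

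The exon peaks both named for a member and inside it lay in 5 genes, 2 of them tissue-restricted copies. Rpl3l, the muscle-restricted paralog of Rpl3 that replaces it in mature heart and skeletal muscle, had peaks over exon 2 of 10 in siMyolinc cells, with 61 tags for MyoD (561 bp from the start, 99.7th percentile of that list) and 15 for Pol II S2P (613 bp), and no peak in any control list. A further Pol II S2P siMyolinc peak of 12 tags lay in its intron 2, in an LTR element. Rpl3 itself, the housekeeping copy, was named for 1 peak in all, 2756 bp upstream with 14 tags for Pol II S2P in siMyolinc cells. By position Rpl3 also held MyoD peaks of 33 tags in siMyolinc cells and of 8 and 10 tags in control cells, all named for its intronic snoRNAs Snord43 and Snord83b. Rpl10l, the intronless autosomal copy of X-linked Rpl10 that is known from testis, had peaks in its single exon in TDP-43 control replicates 2 and 3 (5 and 7 tags, 133 and 216 bp from the start) and none there in the TDP-43 siMyolinc list. The remaining 3 were Rpl10a in MyoD siMyolinc (16 tags), Rps14 in Pol II S2P siMyolinc (17 tags) and Rps4x in the MyoD control (10 tags). By position, exon peaks named for other genes also lay in Rpl3 (the 33-tag MyoD peak) and Rplp0 (7 tags, TDP-43 control replicate 1). Another lay in Rpl32l (176 tags, Myogenin siMyolinc). Rps4l, an intronless copy that the reference does not class as protein-coding, had peaks over its body in TDP-43 control replicates 2 and 3 (11 and 7 tags) and the Pol II S2P control (8 tags), and a peak of 39 tags at its end in MyoD siMyolinc.

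Intron, UTR and gene-end peaks inside members were most numerous in long lists. Of the 292 intron peaks, 39 were in the named member, and 11 of the 41 UTR, gene-end and non-coding peaks were. Pol II S2P siMyolinc had 10 own-intron peaks, against 1 in the control, and they included Rps23 (18 tags, 355 bp), Rpl14 (18 tags, 1377 bp) and Rpl6 (13 tags, 585 bp). MyoD had 11 in siMyolinc cells and 5 in control cells, the highest at Rps9 and Rps26, with 37 tags each in siMyolinc cells. TDP-43 had 3 in siMyolinc cells, at Rpl24 (8 tags, 418 bp), Rpl30 (10 tags, 650 bp) and Rps9 (6 tags, 940 bp), and 2, 0 and 1 in the controls, at Rpl6 and Rpl8. Myogenin had 0 in its short siMyolinc list and 6 in control cells. Rpl21 had 48 tags in its 3′ UTR for MyoD and 17 tags in its 5′ UTR for Pol II S2P, both in siMyolinc cells. Rpl28 had gene-end peaks for MyoD in siMyolinc cells (42 tags) and for Myogenin in control cells (10 tags).

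Naming by nearest start hid part of the signal within these genes. When peaks were assigned by position, to a gene's span or the 1000 bp upstream of it, 155 peak centres fell in members, of which 118 were named for the member and 37 for another gene. Of the 37, 17 were named for a snoRNA, in 10 host genes, among them Snora21 in Rpl23, Snora33 in Rps12, Snora62 in Rpsa and Snora64 in Rps2. Peak centres fell in 7 of the 12 genes named in no list, such as Rpl18, Rpl4 and Rps2. By position, 68 of the 87 genes had a peak somewhere. The 155, the 118, the 68 and the Myogenin siMyolinc count below include a 54-tag Myogenin siMyolinc peak of Rpl36, classed as a gene end. It lay past the annotated span, on the side taken as upstream from an inferred strand that its gene-end class contradicts. Per list the number was 14 for TDP-43 in siMyolinc cells, against 5, 3 and 5 in the controls (mean 4.33 ± 1.15, SD, n = 3; exact permutation p = 0.25, two-sided), 33 and 19 for MyoD, 7 and 23 for Myogenin, and 27 and 3 for Pol II S2P, in siMyolinc and control cells. At Rpl12, for example, Pol II S2P (14 tags) and MyoD (23 tags) peaks of siMyolinc cells were named for its neighbour Lrsam1. A MyoD control peak of 14 tags there was named for the snoRNA Snora65. None of these overlapped the TDP-43 siMyolinc peak of Rpl12.

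By position the member shares were also below those of all genes in each list, untested. Among protein-coding members 16.9% had a peak centre in TDP-43 siMyolinc, against 6.02%, 2.41% and 4.82% in its controls, where all protein-coding genes had 33.6%, against 41.3%, 21.6% and 18.2%. In siMyolinc and control cells the member shares were 38.6% and 22.9% for MyoD, 8.43% and 26.5% for Myogenin, and 32.5% and 2.41% for Pol II S2P, beside 63.6% and 49%, 29.3% and 57.8%, and 64.1% and 21.3% of all genes. The Myogenin siMyolinc share includes Rpl36 through its gene-end peak. The spans differ in length: members had a median of 3175 bp (592 to 11774 bp), and all protein-coding genes 17146 bp. No test with length matched was made, so the lower shares cannot be told apart from shorter spans.

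**Figure D4:**
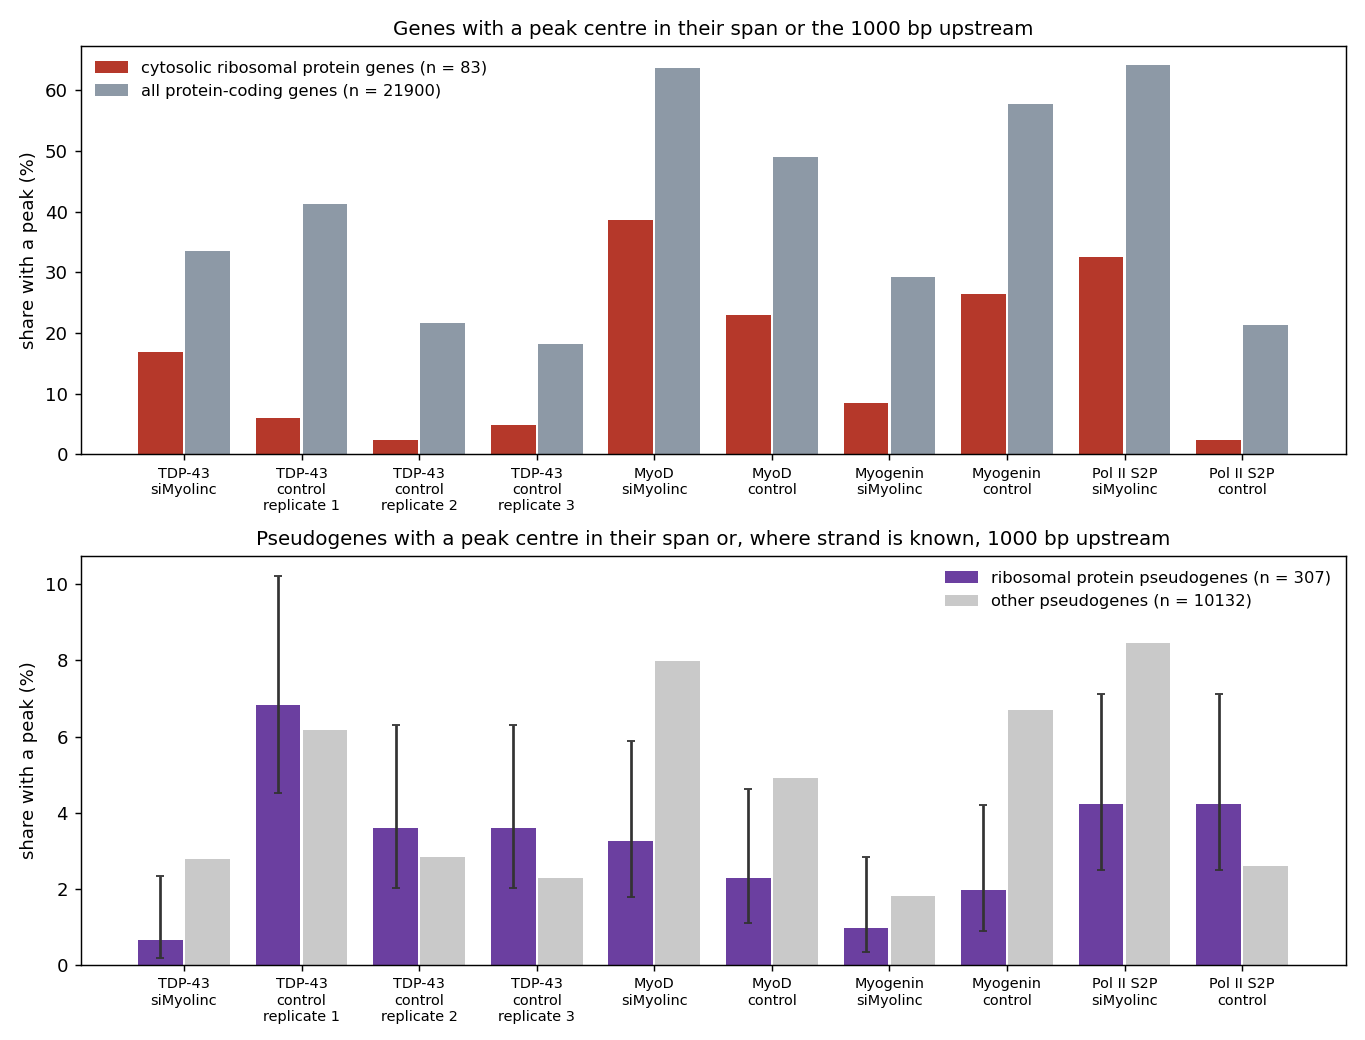
Upper panel, percent of the 83 protein-coding ribosomal protein genes (red) and of all 21900 protein-coding genes (grey) with a peak centre in their span or up to 1000 bp upstream, in each peak list. Lower panel, percent of 307 ribosomal protein pseudogenes (purple, bars with 95% Wilson intervals) and of 10132 other pseudogenes (light grey) with a peak centre in their span. The 1000 bp upstream are included there only for pseudogenes of known strand. The purple bar is above its neighbour in the 3 TDP-43 controls and the Pol II S2P control, and below it in the other 6 lists.

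Processed copies of ribosomal protein genes were counted by position in the same lists, without a test. The 1000 bp upstream were added only to pseudogenes of known strand, and the share of known strands was not compared between the groups below. Of 307 annotated ribosomal protein pseudogenes, which are mostly intronless copies of the mature mRNA, 2 held a TDP-43 peak centre in siMyolinc cells (0.651%, 95% Wilson interval 0.179 to 2.34), against 21, 11 and 11 in the controls (6.84%, 3.58% and 3.58%, intervals 4.52 to 10.2 in replicate 1 and 2.01 to 6.30 in replicates 2 and 3). Other pseudogenes had 2.78% in siMyolinc cells, against 6.18%, 2.84% and 2.27% in the controls. The copies had the higher share in each control and the lower share in siMyolinc cells. The intervals cover counting error within a list, not the spread between libraries, so they do not compare conditions. Neighbouring copies can share a peak, as Rpl7a-ps12 and Rps7-ps3 did in TDP-43 control replicate 1 and the Pol II S2P control. Pol II S2P had 13 in siMyolinc cells and 13 in control cells, or 4.23% each, beside 8.46% and 2.60% of other pseudogenes. MyoD had 10 and 7 (3.26% and 2.28%, beside 7.99% and 4.91%), and Myogenin 3 and 6 (0.977% and 1.95%, beside 1.80% and 6.70%), in siMyolinc and control cells. Other pseudogenes had the higher share in both MyoD lists, both Myogenin lists and Pol II S2P siMyolinc, and the lower share in the Pol II S2P control. The median span was 527 bp for ribosomal protein pseudogenes and 944 bp for the others.

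A minority of these copies had a peak in more than 1 TDP-43 control. Of 29 ribosomal protein pseudogenes with a peak in any TDP-43 control, 10 had one in 2 or more and 4 in all 3, and 5 of the 10 also had one in the Pol II S2P control. Rpl31-ps13 had 20, 7 and 9 tags in TDP-43 control replicates 1, 2 and 3, 11 in the Pol II S2P control and 10 in the Myogenin control, and Rps16-ps2 had 20, 8 and 7 tags in the TDP-43 controls and 8 in the Pol II S2P control. Rpl10a-ps4 (11, 8 and 10 tags) and Rplp2-ps1 (11, 8 and 4 tags) were the other copies with a peak in every TDP-43 control. None of these 4 had a TDP-43 peak in siMyolinc cells. A copy that did have one there was Rpl29-ps6. These pseudogenes, Rpl10l and Rps4l are copies of mature mRNA sequence, so reads could have been shared with the parent genes, and their tag counts are uncertain.

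Promoter sequences of the group are described by the share of windows that hold each motif, without a test. RefSeq windows of the same 300 bases were at hand for 63 of the 83 protein-coding members (75 windows) and were compared with 21263 windows of 17492 genes. TTCCGG was present in 46.7% of member windows and 18.7% of all windows, and AAGATGGC in 9.33% and 3.05%. The E-box CANNTG was in 50.7% of member windows and 69.0% of all windows, and CAGCTG, the form MyoD and Myogenin prefer, in 5.33% and 15.6%. TGTGTG was in 16% and 18.7%. The base at the start was C in 29.3% of member windows and 13.8% of all windows, and C followed by 4 pyrimidines in 18.7% and 2.21%. Such a run anywhere within a few bases of the annotated start was in 41.3% and 18.6%. The median GC content was 58% and 56.3%, and the median number of CG dinucleotides 21 and 13. Of the 14 genes with a MyoD promoter peak and a window, 7 held CANNTG, as did 26 of 49 without such a peak, and for Myogenin the counts were 7 of 10 and 26 of 53. For TDP-43, TGTGTG was in 1 of 7 genes with a peak and 9 of 56 without. The windows reach 250 bases upstream and the promoter class 1000 bp, so some of these peaks lay outside the scanned bases. In siMyolinc cells, MyoD peaks were centred 904 bp upstream at Rpl39l and 784 bp upstream at Rplp2. The TDP-43 peak of Rpl37 was centred 482 bp upstream. Whether a motif lay under a peak was not tested, so the counts cannot say whether peaks went with motifs. Windows were not at hand for Rpl30, Rpl23a, Rpl32, Rpl7 and Rpl8, which have promoter peaks named above.

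Other genes of the translation machinery had their own counts. Of 78 genes for mitochondrial ribosomal proteins, TDP-43 had a promoter peak at 1 in siMyolinc cells (Mrpl24), against 0, 1 and 0 in the controls; 14 and 1 had a MyoD promoter peak, 3 and 4 a Myogenin peak, and 5 and 1 a Pol II S2P peak, in siMyolinc and control cells. Of 40 ribosome biogenesis genes, Nob1 was the 1 with a TDP-43 promoter peak after knockdown, against 2 (Dkc1 and Nop56), 0 and 0 in the controls, and 6 and 1 had one for MyoD, 1 and 2 for Myogenin and 2 and 0 for Pol II S2P. Among 16 genes of elongation and other TOP mRNAs, no TDP-43 list had a promoter peak, MyoD had 6 and 1, Myogenin 0 and 2, and Pol II S2P 1 (Eef2, the translocation factor) and 0. Of cytosolic genes outside the naming rule, Fau and Rack1 had no TDP-43 promoter peak in any list, and Fau had one for MyoD in siMyolinc cells. As shares, TDP-43 promoter peaks after knockdown were at 1.28% of the mitochondrial, 2.5% of the biogenesis and 0% of the elongation and TOP genes. They were at 7 of the 83 cytosolic members (8.43%), beside 2.49% of all protein-coding genes. For MyoD in siMyolinc cells these shares were 17.9%, 15%, 37.5% and 14.5%, beside 11.2% of all genes. In MyoD control cells they were 1.28%, 2.5%, 6.25% and 9.64%, beside 4.01%. The shares of all genes in the other lists are given above with the promoter peaks. The differences between groups were not tested.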

How the data were processed

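ChIP-seq was done on C2C12 cells, and the 10 deposited peak lists (4 siMyolinc, 6 control), each against IgG, were used. Per the file headers the authors annotated peaks with HOMER, giving a peak score, a focus ratio (a fraction) and, as other values, the distance to the nearest start, in mm10, the build the submitters' processing notes name. Which aligner, peak-calling settings and HOMER version were used is not given in the sources used here. The deposited scores outside the top 1% of each list were whole multiples of 1 step per list. All scores were divided by that step to give tags. The step recovery was tested on simulated data (at least 99.98% of tags recovered, 10 lists).

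The members and gene lists were chosen with earlier results of these data known. Peaks were joined to RefSeq genes (GRCm38.p6; all member names matched) in Python 3.11.15 with pandas 2.3.3, numpy 2.4.6, scipy 1.17.1 and matplotlib 3.10.9. No genome sequence was used. By position, a gene was its span plus 1000 bp upstream, or its span alone where no strand was known. For protein-coding genes the strand came from the promoter table (17492 genes), from named distances (3727) or was lacking (681). Strands from named distances can be wrong, as at Rpl36. By HOMER's default the promoter class reaches from 1000 bp upstream to just inside the start; HOMER and RefSeq starts matched within 1 bp for 24 of 30 genes compared, and the largest gap was 1020 bp, at Rps4x. The test for TDP-43 was an exact two-sided permutation test over 1 against 3 libraries, while the other antibodies have 1 library per condition and no test. Intervals are 95% Wilson (shares) or exact Poisson (tags) and cover counting error only, since PCR duplicates were not marked by molecular identifiers. Named genes were those with a TDP-43 or Pol II S2P promoter peak, with exon peaks in 2 or more TDP-43 controls, with the 5 highest MyoD or Myogenin promoter peaks per list, with sites in 3 or more libraries or peaks in 8 or more lists, and Rpl3 and Rpl3l; others were chosen after their values were seen. Alternatives were lists of equal length, peaks at or above the median score, no repeat peaks, naming by position, peaks within 1000 bp, no paralogs, exon with UTR classes, and each TDP-43 control left out. Values of a few genes are not reported here.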

Additional observations from a re-analysis of the deposited data

Results flagged for a closer look

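By numbers of genes, Myogenin differed in the opposite direction to the other antibodies. The number of ribosomal protein genes with a promoter peak was 3 in siMyolinc cells and 10 in control cells for Myogenin, a difference of -7, whereas it was 6 above the control mean for TDP-43, 4 above control for MyoD and 8 above control for Pol II S2P. By position the Myogenin counts were 7 in siMyolinc cells and 23 in control cells, a difference of -16, against 9.67 for TDP-43, 14 for MyoD and 24 for Pol II S2P. The 7 include Rpl36, whose peak lay past its gene end. The share of all protein-coding genes was also lower for Myogenin after knockdown, at 2.46% in siMyolinc cells and 6.46% in control cells for promoter peaks, and 29.3% and 57.8% by position. As a share of all peaks (siMyolinc minus control), ribosomal protein peaks differed by 0.0554 percentage points for Myogenin, -0.0175 for MyoD, 0.0651 for Pol II S2P and 0.0870 for TDP-43. The difference between antibodies was not tested, as 3 of the 4 have 1 library per condition. List length moved with the counts: the Myogenin siMyolinc list had 20453 peaks and the control list 115000, and with lists of equal length the Myogenin promoter difference was -1.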

How the results depend on the processing

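Alternatives were run for the numbers of genes with a promoter or an exon peak, and none of those differences turned to the opposite sign, though the Myogenin exon difference of 0 moved to either side. The other differences in the text were not recomputed. No paired analysis was possible because siMyolinc and control share only replicate number 1. Differences are siMyolinc minus control, in genes, and shares of all genes were not counted for the alternatives. For promoter peaks the differences as reported were 6 for TDP-43, 4 for MyoD, 8 for Pol II S2P and -7 for Myogenin, and lists of equal length gave 2, 1, 1 and -1. Peaks at or above the median score gave 1 for MyoD and 4 for Pol II S2P, and peaks within 1000 bp of the named start gave 13 for Pol II S2P. Leaving out 1 TDP-43 control gave 5.5 to 6.5. For exon peaks they were -0.667 for TDP-43, 4 for MyoD, 9 for Pol II S2P and 0 for Myogenin, and equal length gave -2 for TDP-43, 1 for MyoD and 0 for Pol II S2P. The median score gave 0, 2, 5 and -2, and naming by position gave -1, 2, 2 and 1, in that order. Exon, UTR and gene-end classes together gave 0 for TDP-43, 8 for MyoD and -5 for Myogenin. Counting only exons of the member itself, an alternative chosen after seeing the data, gave 1 for MyoD and 2 for Pol II S2P. Leaving out 1 TDP-43 control gave -1 to 0. The cause was not tested, beyond the shorter lists that equal length and the median score make by construction. In all, 32 of the alternative differences were within 1.5 times the reported one (or also 0 where that was 0), and 26 were not. Depth limits the low peaks: 5 tags carry an interval of 1.62 to 11.7 tags.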
